A study of Rattus norvegicus with 4 samples.

Results

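The genes described here carry glucose from its uptake to lactate, store it as glycogen, or belong to the response to low oxygen. The list holds 43 genes, taken as the probe sets annotated to exactly 1 gene symbol where that symbol is in the list. By this rule 41 genes had a probe set, 63 probe sets in all among the 15923 of the array. Pkm was left out because its probe set is annotated to a pseudogene as well, and Car9 had no probe set under its symbol. Gapdh was represented by array control probe sets alone. Of the 40 other genes, 5 were too dim to test (a mean among the lowest 40% of probe sets, that is under an intensity of 81.1), which left 35 tested members among 7016 tested genes.

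Expression was measured in RTEC11, a conditionally immortalized line of rat tracheal epithelial cells. The line comes from transgenic rats with a temperature-sensitive large T antigen of simian virus 40, a viral protein that inactivates p53 and the retinoblastoma proteins, so the samples of both temperatures carried this transgene. The promoter that drives it and the rat strain are not given in the sources used here. Permissive cultures were kept at 33 °C and nonpermissive cultures at 39 °C, each for 3 days, with 2 arrays per temperature. The study concerns the arrest of growth, and the differentiation, that follow the shift to 39 °C. Heat and loss of the antigen came together, so their parts cannot be told apart. RTEC11 is 1 line, and no label states that the replicates were grown separately. The p-values thus cover the spread of these 4 arrays alone, and that spread may be technical. In such bulk RNA, fewer cells of a kind and less RNA per cell cannot be told apart.

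The epithelial identity was checked first. Of 11 epithelial markers 10 were above the dim limit, Epcam, Cdh1, Krt8, Krt18, Krt19 and the basal keratin Krt14 among them. Krt5, another basal keratin, was below it. All 3 endothelial markers with a probe set, 5 of 6 leukocyte markers and 7 of 9 mesenchymal markers were below it. The exceptions were Cd14, Vim and Col3a1, and Col3a1 rose (log2 change 1.61). Col3a1 was at 59.1 and 47.9, under the dim limit, at 33 °C and at 263.5 and 172.8 at 39 °C. It was tested only because it was brighter at 39 °C. The summed intensity of the mesenchymal list was 8098 and 9163 at 33 °C and 7717 and 8555 at 39 °C, and that of the epithelial list was 75695 and 78643 at 33 °C and 85278 and 85520.0 at 39 °C. The part of these differences in the results below was not tested.

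Glycolysis splits glucose into pyruvate. Hexokinase traps glucose in the cell, phosphofructokinase commits it to the pathway, and the lower steps recover the energy. Pyruvate then goes to lactate through lactate dehydrogenase and leaves through monocarboxylate transporters, or enters the mitochondrion through pyruvate dehydrogenase, which the Pdk kinases switch off. Hif1a is the subunit of the hypoxia-inducible factor that prolyl hydroxylases mark for destruction when oxygen is present, and many glycolytic genes are among its known targets. Proliferating cells are known for high glycolysis.

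At 39 °C most genes of the glycolytic steps were lower than at 33 °C, while most of the called genes of the hypoxia-response group were higher. Across the 35 tested members 16 fell and 8 rose, by limma with Benjamini-Hochberg adjustment over all 7016 genes and a threshold of 0.05. The background was high, since 49.1% of all tested genes were called, 26.1% lower and 23.1% higher. Egln3 and Pdk2, among the 8, passed the dim filter only through their values at 39 °C. Hk2, among the 16, passed it only through its values at 33 °C. A dim filter at the 60th percentile leaves out these and other dim genes. There 13 of 27 members fell and 6 rose, against 1474 and 1279 of 5009 tested genes. The median log2 change was -0.25 over the members and -0.04 over all tested genes. On the 4 arrays the temperatures did not overlap for 30 of the 35 members, against 75.1% of all tested genes. Changes are given on the scale of log2(intensity + 16) after quantile normalization, which understates those of dim genes, and are always 39 °C minus 33 °C, while single array values are deposited intensities. Further probe sets of a gene were read from a second fit over 8178 probe sets, of which 48.0% were called, and 29 of the members' 42 tested probe sets were called in it. Of 7 further tested probe sets of members, 6 had the sign of the one used, and P4ha2 was the exception. Intensities are not comparable between genes, since each probe set binds with its own strength.

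**Figure D1:**
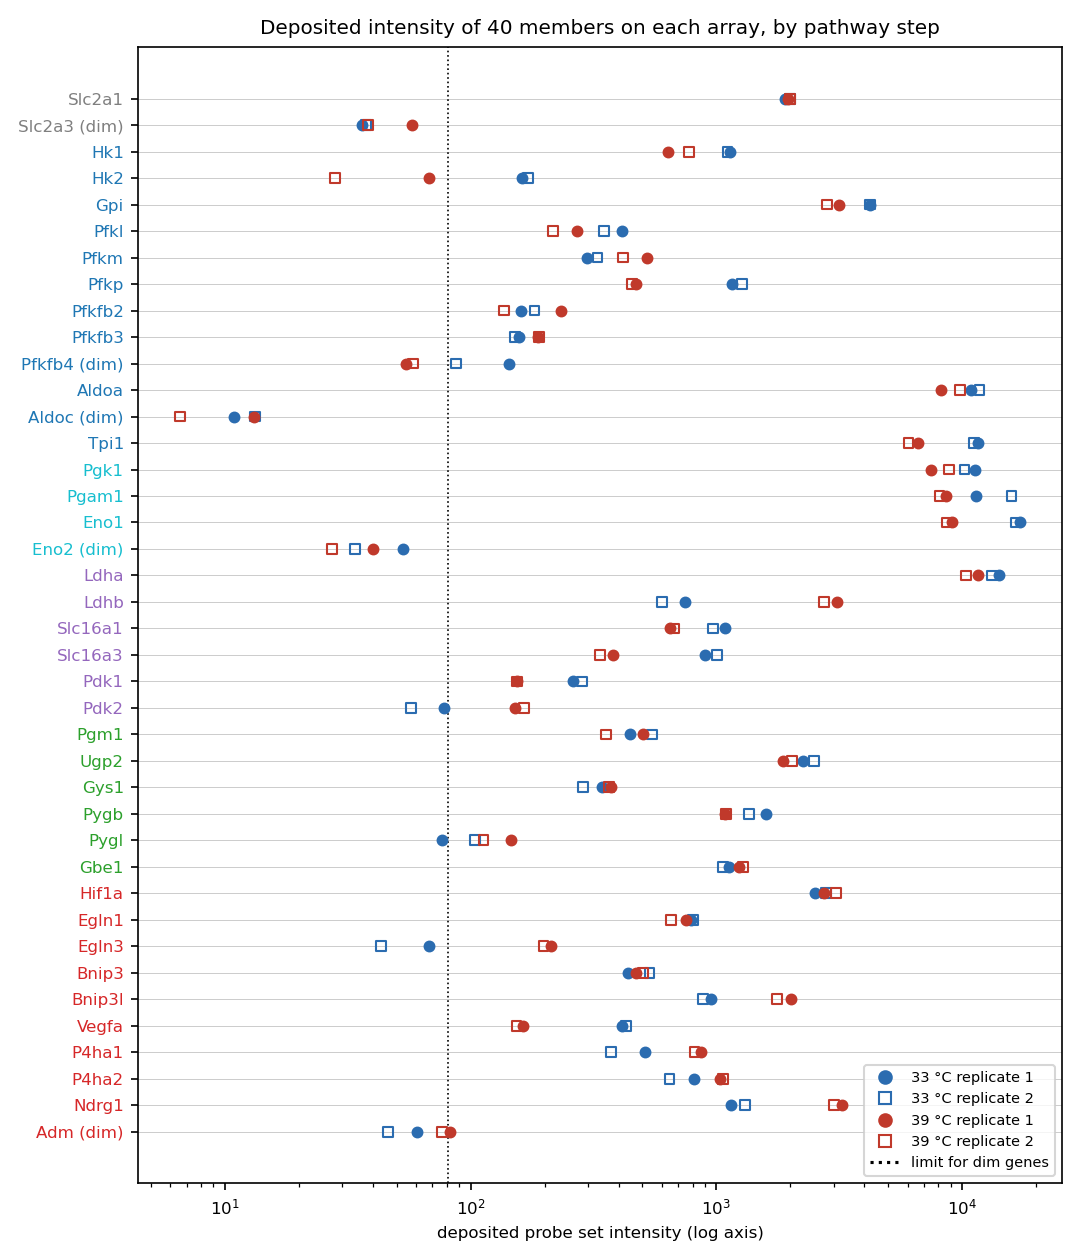
Deposited intensity (log axis) of 40 members on each of the 4 arrays, in pathway order. Blue is 33 °C, red is 39 °C, circles are replicate 1, squares are replicate 2, and the dotted line is the dim limit at 81.1. Gene names are coloured by group. Eno1, Tpi1, Pfkp, Slc16a3 and Vegfa lie to the left at 39 °C, and Ldhb, Ndrg1, Egln3 and Bnip3l to the right.

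**Figure D2:**
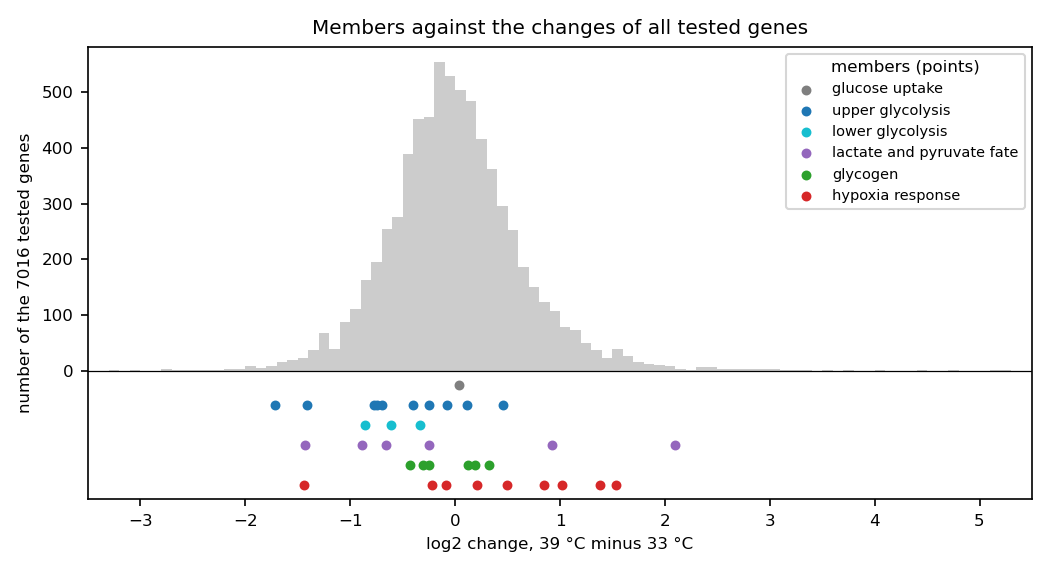
Histogram of the log2 change (39 °C minus 33 °C) of the 7016 tested genes, with the 35 tested members as points below, 1 row per group. Glycolytic members lie mostly left of 0 and hypoxia-response members mostly right of it, within the spread of all genes.

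Glucose uptake showed no called change. Slc2a1, the main glucose carrier of many epithelia, was at 1901 and 1999 at 33 °C and at 1949 and 1989 at 39 °C, so the arrays overlapped. Its log2 change was 0.03 ± 0.09 (SE, limma adjusted p 0.785), which turned to -0.13 with arrays centred on their medians and to -0.35, then called, with arrays scaled to the poly-A spike-in controls. Slc2a3, a carrier of high affinity, was dim, at 36.2 and 37.6 against 57.7 and 38.2.

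In the upper part of glycolysis, up to the triose phosphates, 7 of 10 tested genes fell and 1 rose. Both hexokinases fell. Hk1, the constitutive form, was at 1134 and 1110.4 at 33 °C and at 637 and 775 at 39 °C, a log2 change of -0.69 ± 0.12 (SE, limma adjusted p 0.000639). The array also carries control probe sets along the hexokinase transcript, annotated to Hk1, and all 3 were lower at 39 °C, by -0.83 at the 3′ end, -0.48 in the middle and -0.74 at the 5′ end on the deposited log2 scale. Hk2, the form that growth signals induce, was at 162 and 171 at 33 °C and at 67.8 and 28.2 at 39 °C. Its log2 change of -1.71 ± 0.30 (SE, limma adjusted p 0.000679) stayed called wherever it was tested, but its size is imprecise, since both arrays at 39 °C lay under the dim limit. It was -2.05 with a pseudocount of 1, -1.16 with 64, -2.09 without nonpermissive replicate 1 and -1.34 without nonpermissive replicate 2. Gpi, which turns glucose 6-phosphate into fructose 6-phosphate, fell by 0.40 on the log2 scale.

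The 3 subunits of phosphofructokinase moved apart. Pfkp, the platelet form, was at 1161 and 1276 at 33 °C and at 471 and 453 at 39 °C, 2.66-fold lower on the normalized scale (log2 change -1.41 ± 0.12, SE, limma adjusted p 2.97e-06). Pfkl, the liver form, was at 414 and 349 against 270 and 217, a log2 change of -0.74 ± 0.17 (SE, limma adjusted p 0.00343). Pfkm, the muscle form, was at 299 and 329 at 33 °C and at 524 and 419 at 39 °C. None of these subunits overlapped between temperatures. The Pfkm change of 0.46 ± 0.15 (SE, limma adjusted p 0.0268) was not called without permissive replicate 1 (0.40), without nonpermissive replicate 1 (0.29), with spike-in scaling (0.19) or without the dim filter. A second Pfkm probe set changed by 0.79 and was called.

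The Pfkfb enzymes make or remove fructose 2,6-bisphosphate, which activates phosphofructokinase. Neither Pfkfb2 (log2 change -0.08) nor Pfkfb3 (0.11) was called, and both signs depended on the scaling, Pfkfb2 turning to 0.06 on the deposited scale and Pfkfb3 to -0.10 with spike-in scaling. Their other probe sets, all dim, had log2 changes between 0.34 and 1.06. Pfkfb4 was dim, at 143 and 87.0 against 54.6 and 58.2. Run without the dim filter, its log2 change was -0.95 (limma adjusted p 0.0633). With a pseudocount of 64 it passed the filter and was called lower at -0.64 (limma adjusted p 0.0220).

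Aldolase A and triose phosphate isomerase lie at the end of the upper part. Tpi1 was at 11601 and 11194 at 33 °C and at 6595 and 6046 at 39 °C, with a log2 change of -0.77 ± 0.08 (SE, limma adjusted p 2.16e-05). Aldoa changed by -0.25 (limma adjusted p 0.0433), with no call once permissive replicate 2 was left out (-0.20), nor without nonpermissive replicate 1 (-0.13). Aldoc, the brain form, was dim on all arrays, between 6.60 and 13.3.

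All 3 tested genes of the lower part fell. Eno1, the enolase of most tissues, was at 17187 and 16574 at 33 °C and at 9072 and 8675 at 39 °C, 1.82-fold lower (log2 change -0.86 ± 0.08, SE, limma adjusted p 5.47e-06). Pgam1, a phosphoglycerate mutase, was at 11431 and 15879 against 8565 and 8082. Its log2 change of -0.62 ± 0.12 (SE, limma adjusted p 0.00171) stayed called without permissive replicate 2 at -0.38. Pgk1, which makes the first ATP of the pathway, changed by -0.34 and by -0.36 in a second probe set. Its call was lost without nonpermissive replicate 1 (-0.23). Eno2, the neuronal enolase, was dim, between 27.3 and 53.1.

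Gapdh is often used as a reference gene. Its 3 control probe sets were lower at 39 °C on every array, at 19707 and 20447 against 17102 and 15971 at the 3′ end. The ratio of 3′ to 5′ signal, a measure of RNA integrity, was 1.17 and 1.14 at 33 °C and 1.12 and 1.01 at 39 °C. For the hexokinase control probe sets this ratio was higher, at 1.75 and 1.60 at 33 °C and 1.51 and 1.67 at 39 °C. The Gapdh and hexokinase control probe sets were then added to the fit, a choice made after seeing the data. In that fit the Gapdh 3′ probe set changed by -0.17 (limma adjusted p 0.0938) and was not called. Many of these abundant glycolytic genes have processed pseudogenes in rodents, whose transcripts the probe sets may also bind.

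Counting both parts, 10 of 13 tested glycolytic genes fell and 1 rose. Their median log2 change was -0.62. On the deposited scale and with median centring the counts were again 10 and 1, and with spike-in scaling 10 fell and none rose. Without the intensity trend 8 fell and 1 rose, without nonpermissive replicate 1 8 fell and none rose, and without the dim filter 9 of 16 fell and none rose. Without permissive replicate 2 9 fell, 1 rose and the median was -0.41. Spike-in scaling moved the median of all tested genes to -0.34 and median centring moved it to -0.13, so falls are read relative to those values there. Of all 7016 tested genes 1829 were called lower in the main fit. Of 7015 it was 2322 with median centring and 3325 with spike-in scaling.

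**Figure D3:**
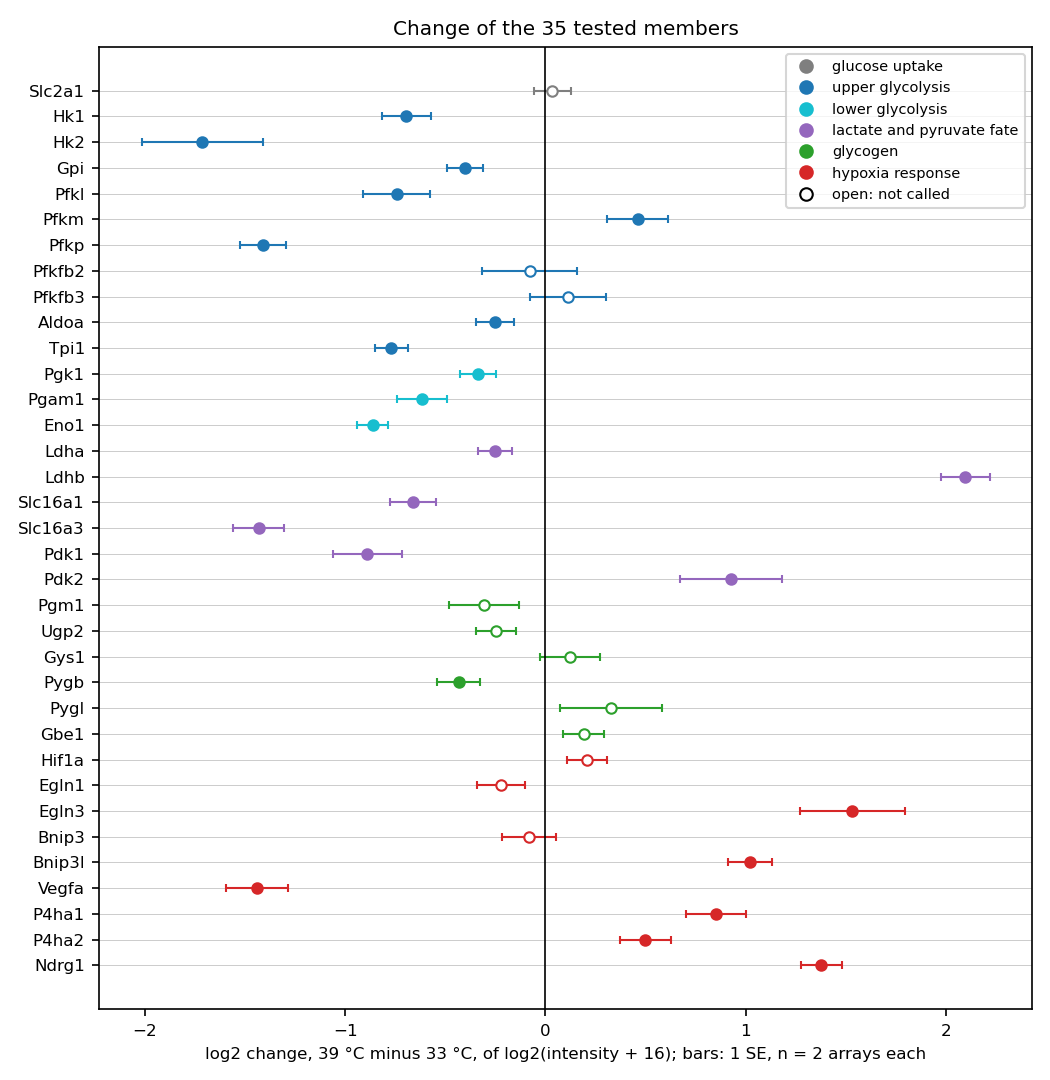
Log2 change (39 °C minus 33 °C) of the 35 tested members with bars of 1 SE, n = 2 arrays per temperature, in pathway order. Filled points were called at an adjusted p under 0.05 and open points were not. The values run from -1.71 for Hk2 to 2.10 for Ldhb.

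The genes that decide the fate of pyruvate were all called, 4 lower and 2 higher, and the 2 subunits of lactate dehydrogenase differed most. Ldhb, the subunit of heart and other oxidative tissues, was at 745 and 599.7 at 33 °C and at 3090.1 and 2732 at 39 °C. This was a 4.28-fold rise (log2 change 2.10 ± 0.12, SE, limma adjusted p 3.08e-07) and the largest change of any tested member, rank 70 by size among the 7016 tested genes. Ldha, the subunit that prevails in glycolytic cells, was at 14100.2 and 13213 against 11581 and 10342. Its log2 change of -0.25 ± 0.08 (SE, limma adjusted p 0.0286) was lost as a call without permissive replicate 1 (-0.20) or nonpermissive replicate 2 (-0.17), without the dim filter and without the intensity trend.

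Both lactate carriers fell. Slc16a3 (MCT4), the exporter of glycolytic cells, was at 898 and 1006 at 33 °C and at 382 and 337 at 39 °C, 2.70-fold lower (log2 change -1.43 ± 0.13, SE, limma adjusted p 5.57e-06). Slc16a1 (MCT1) was at 1083 and 968 against 647 and 673, a log2 change of -0.66 ± 0.11 (SE, limma adjusted p 0.000573). Neither overlapped between temperatures.

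The kinases that inhibit pyruvate dehydrogenase moved in opposite directions. Pdk1, a known Hif1a target, was at 262 and 285 at 33 °C and at 155 and 155.1 at 39 °C, a log2 change of -0.89 ± 0.17 (SE, limma adjusted p 0.00136). A second Pdk1 probe set changed by -0.29 and was not called. Pdk2 was at 78.1 and 57.4, under the dim limit, at 33 °C and at 151 and 165 at 39 °C. Its log2 change of 0.93 ± 0.25 (SE, limma adjusted p 0.0105) was not called without nonpermissive replicate 1 (1.005) or nonpermissive replicate 2 (0.85).

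In glycogen metabolism 1 of 6 tested genes fell and none rose. Pygb, the brain form of the phosphorylase that releases glucose from glycogen, was at 1588 and 1359 at 33 °C and at 1083 and 1096 at 39 °C, with a log2 change of -0.43 ± 0.11 (SE, limma adjusted p 0.00602). Pygl, the liver form, was at 76.4 and 104 against 146 and 113, and its change of 0.33 ± 0.25 (SE) was not called. Pgm1, which links glycogen to glucose 6-phosphate, changed by -0.31 without a call, while its second probe set was called at -0.61. It was called lower with the mean of its probe sets (-0.46), with spike-in scaling (-0.58) and without nonpermissive replicate 1 (-0.56), and was at -0.05 without nonpermissive replicate 2. Ugp2, which makes UDP-glucose, changed by -0.25 (limma adjusted p 0.0574) and was called on the deposited scale, with median centring, with spike-in scaling, with the replicate block and without permissive replicate 1. The glycogen synthase Gys1 (0.12) and the branching enzyme Gbe1 (0.19) were not called, and both turned negative with spike-in scaling (-0.14 and -0.17).

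Of 9 tested hypoxia-response genes 5 rose, 1 fell and 3 were not called. Their median log2 change was 0.50. Egln3, among the 5, was tested only because it was brighter at 39 °C. With a dim filter at the 60th percentile, which leaves out Egln3 and Vegfa, 4 of 7 rose and none fell. With spike-in scaling 4 rose, 3 fell and the median was 0.17, against a median of -0.34 for all genes. With the mean of each gene's probe sets 4 rose, 1 fell and the median was 0.03. Hif1a itself was at 2514 and 2800.0 at 33 °C and at 2730 and 3071 at 39 °C, so on the deposited scale the arrays overlapped. Its log2 change of 0.21 ± 0.10 (SE, limma adjusted p 0.109) was -0.02 with median centring and -0.24 with spike-in scaling, neither called. The array measures transcripts only, and the factor is known to be controlled mainly through its protein.

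The prolyl hydroxylases that act on Hif1a differed. Egln3 was at 67.7 and 43.2, under the dim limit, at 33 °C and at 212 and 198 at 39 °C, a log2 change of 1.53 ± 0.26 (SE, limma adjusted p 0.000546). Egln1 was at 792 and 804 against 752 and 656. The Egln1 change of -0.22 (limma adjusted p 0.149) was called with median centring (-0.33) and with spike-in scaling (-0.54).

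Ndrg1, a gene of differentiation and stress, was at 1147 and 1310.0 at 33 °C and at 3232 and 2999 at 39 °C. It rose 2.60-fold (log2 change 1.38 ± 0.10, SE, limma adjusted p 1.56e-06). Bnip3l, a mitochondrial receptor for mitophagy, was at 955 and 882 against 2017 and 1767, a log2 change of 1.02 ± 0.11 (SE, limma adjusted p 2.20e-05), and its second probe set rose by 0.78. Its relative Bnip3 was at 438 and 535 against 472 and 504, so the arrays overlapped, and its change of -0.08 was not called. With spike-in scaling Bnip3 was called lower at -0.35. P4ha1, a catalytic subunit of collagen prolyl 4-hydroxylase, was at 513 and 373 at 33 °C and at 869 and 814 at 39 °C, a log2 change of 0.85 ± 0.15 (SE, limma adjusted p 0.000681). P4ha2, another such subunit, changed by 0.50 (limma adjusted p 0.00644), but its second probe set was at -0.43 without a call. The P4ha2 call was lost with the mean of its probe sets (0.03) and with spike-in scaling (0.17).

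Vegfa, the endothelial growth factor and a classical hypoxia target, went the other way. It was at 412 and 428 at 33 °C and at 164 and 154 at 39 °C, 2.71-fold lower (log2 change -1.44 ± 0.16, SE, limma adjusted p 2.25e-05). A second Vegfa probe set gave -1.55. Adm, which encodes adrenomedullin, was dim, at 60.7 and 46.3 against 82.6 and 76.8.

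Isoforms of 1 enzyme were compared by the difference of their log2 values on each array, which shows unequal change and says nothing of which isoform is more abundant. For 11 of 12 pairs with both genes tested, the arrays of the temperatures did not overlap. Of all single tested genes 75.1% did not overlap, and the share over other gene pairs was not computed. The count is thus no result about isoforms. With 2 arrays per group the exact two-sided permutation test cannot go below 0.333, so it can call no pair, and no other test of the pairs was run. Ldhb minus Ldha shifted most, by 2.35, from -4.25 ± 0.14 at 33 °C to -1.90 ± 0.02 at 39 °C (SD, n = 2 each, exact p 0.333). Pfkp minus Pfkm shifted by -1.87. Pdk2 minus Pdk1 shifted by 1.82 and Egln3 minus Egln1 by 1.75. Pdk2 and Egln3 lay under the dim limit at 33 °C and were tested only because they were brighter at 39 °C, so the sizes of these shifts are imprecise, and over the alternatives they ran from 1.33 to 2.06 and from 1.30 to 2.04. Bnip3l minus Bnip3 shifted by 1.11 and Slc16a3 minus Slc16a1 by -0.77. Leaving out single arrays moved the lactate dehydrogenase shift between 2.25 and 2.44. The Hk2 minus Hk1 shift of -1.02 rested more on single arrays, with a range of -1.53 to -0.51. Hk2 lay under the dim limit at 39 °C and was tested only because it was brighter at 33 °C. The pair that overlapped was Pfkfb3 minus Pfkfb2.

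**Figure D4:**
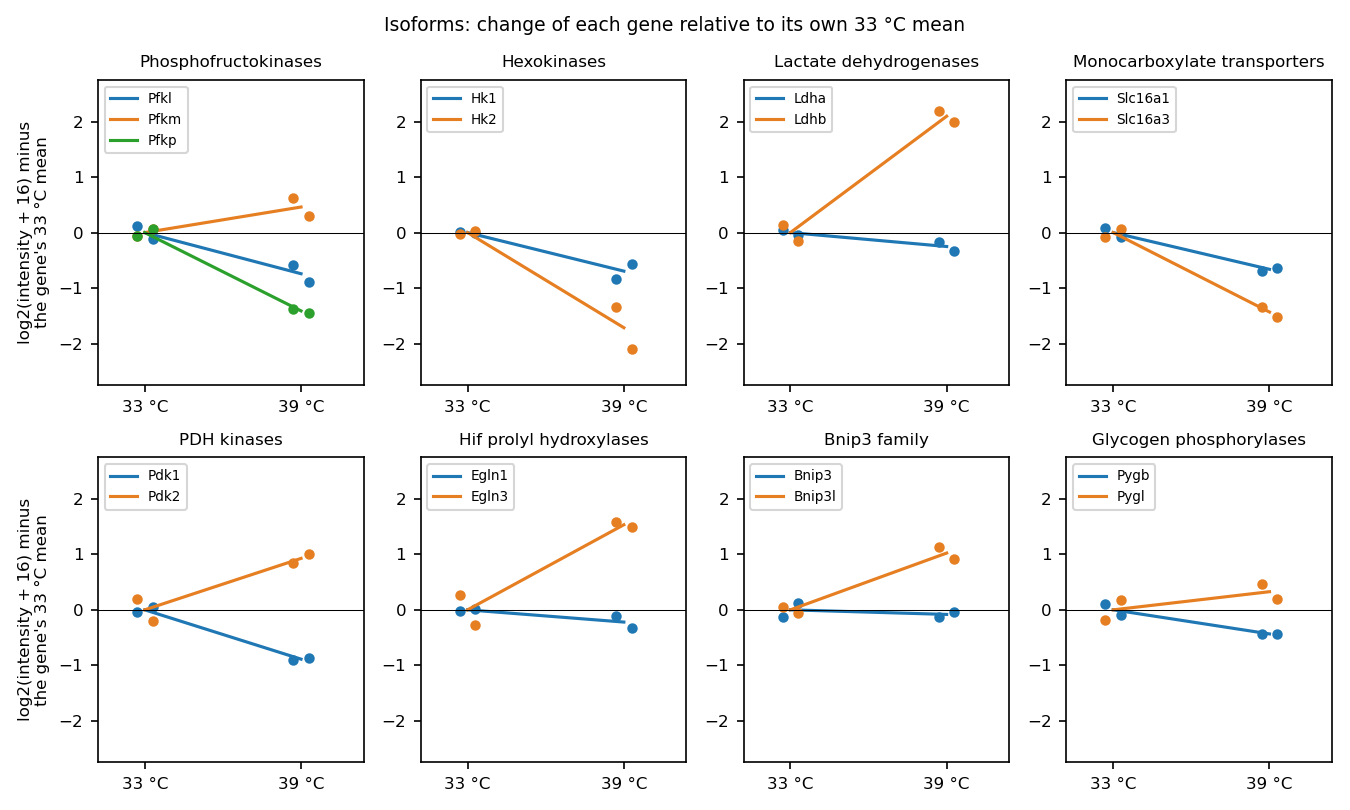
Log2(intensity + 16) of the isoforms in 8 families on each array, relative to each gene's own mean at 33 °C. Points are arrays and lines join the means of 2 arrays. Ldhb, Pdk2, Egln3, Bnip3l and Pfkm rise where their partners fall or stay near 0.

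The start sites of these genes show how widely the letters of a hypoxia response element occur among members that rose, fell or stayed. RefSeq promoter sequence of build GRCr8 (250 bases before to 50 after the start) was found for 39 of the 43 genes, the others being Slc2a3, Pgk1, Bnip3l and Ndrg1. The core letters ACGTG or GCGTG, searched on both strands, were in 71.8% of these 39, in 63.8% of 6558 promoters of tested genes and in 41.6% of all 33469 promoters of the table. They were in 5 of 6 called higher, 9 of 15 called lower and 10 of 11 tested and not called. ACGTG was in 56.4% of members and 26.5% of tested genes, while GCGTG was in 46.2% of members and 51.9% of tested genes. By call, ACGTG was in 4 of 6 higher, 6 of 15 lower and 8 of 11 not called. GCGTG was in 3 of 6, 7 of 15 and 6 of 11 in the same order, and these splits were not tested. CACGTG, the E-box that overlaps ACGTG, was in 15.4% of members and 9.68% of tested genes. The Egln3, Vegfa, Hk2 and Slc16a3 windows hold none of these letters, which says only that they are not in this window. Base composition was not matched, and a match is a description of the letters.

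Windows are shown for the lactate dehydrogenase, Pdk and phosphofructokinase families, in each of which 1 gene rose while another fell, and for Bnip3, Hif1a and P4ha1 as further examples. In these windows GCGTG stands before genes that fell (Ldha, Pdk1, Pfkl, Pfkp) and genes that rose (Ldhb, P4ha1). ACGTG stands before Ldha, which fell, and before Pdk2 and Pfkm, which rose. Capitals mark ACGTG or GCGTG on either strand, so CACGT and CACGC are the reverse complements. Each runs 5′ to 3′ on the gene's strand and ends before the start site.
Ldha, chr1:106507990-106508091, plus strand: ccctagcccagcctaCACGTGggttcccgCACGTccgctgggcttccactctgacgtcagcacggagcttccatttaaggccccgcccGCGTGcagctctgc
Ldhb, chr4:177177492-177177526, minus strand: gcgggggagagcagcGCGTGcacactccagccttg
Pdk1, chr3:77113368-77113479, plus strand: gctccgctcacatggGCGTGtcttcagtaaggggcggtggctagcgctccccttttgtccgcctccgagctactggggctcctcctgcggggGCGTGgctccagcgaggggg
Pdk2, chr10:80484035-80484070, minus strand: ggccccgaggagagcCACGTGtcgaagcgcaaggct
Pfkl, chr20:10663735-10663824, plus strand: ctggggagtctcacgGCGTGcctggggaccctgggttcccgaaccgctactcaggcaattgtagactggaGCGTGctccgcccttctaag
Pfkm, chr7:131113952-131113986, plus strand: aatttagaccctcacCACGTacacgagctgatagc
Pfkp, chr17:68639755-68639789, plus strand: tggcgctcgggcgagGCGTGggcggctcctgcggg
Bnip3, chr1:203155033-203155085, minus strand: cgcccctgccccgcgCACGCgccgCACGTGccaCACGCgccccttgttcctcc
P4ha1, chr20:27844895-27844966, plus strand: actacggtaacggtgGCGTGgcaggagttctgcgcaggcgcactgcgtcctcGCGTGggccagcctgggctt
Hif1a, chr6:98359654-98359753, plus strand: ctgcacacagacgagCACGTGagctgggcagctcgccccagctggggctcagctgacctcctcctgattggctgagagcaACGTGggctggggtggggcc

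The Ldha window holds an E-box, CACGTG, beginning 87 bases before the start, as does that of Pdk2, beginning 143 bases before it. Ldha was lower and Pdk2 higher at 39 °C. The Bnip3 and Hif1a windows hold CACGTG as well, and neither gene was called. Of the members not shown, Pfkfb3, which was not called, and Slc16a1, which fell, also hold it.

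Other genes of these pathways were read from 6 further lists of 100 genes, of which 56 were tested. There 12 rose and 12 fell, while of all tested genes 23.1% rose and 26.1% fell. The median log2 change of the 56 was -0.04, the same as over all tested genes. With spike-in scaling 5 of the 56 rose and 30 fell, while of all 7015 genes tested there 844 rose and 3325 fell. The members' split of 8 and 16 became 6 and 21 there.

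Among 8 other tested enzymes of glycolysis and gluconeogenesis 2 rose and 3 fell. The largest rise was that of Adpgk, a glucokinase that uses ADP (0.65), and the largest fall that of the mitochondrial Pck2 (-0.72), whose second probe set was not called at -0.39. In the pentose phosphate pathway, which branches off at glucose 6-phosphate, 1 of 6 rose and none fell. That gene was Tkt, a transketolase (0.57), whose second probe set was called in the opposite direction at -1.40, so its direction is not settled. Around pyruvate dehydrogenase 2 of 10 rose and 2 fell, with the kinase Pdk3 at 0.60 and the phosphatase Pdp2 at -0.62. The Adpgk, Tkt and Pdk3 calls were lost with spike-in scaling, and the Pdp2 call on the deposited scale.

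Of 9 other tested glycogen genes 3 rose and 2 fell. Phkb, a subunit of the kinase that activates phosphorylase, rose by 1.07 ± 0.19 (SE, limma adjusted p 0.000664). Gsk3b, a kinase that inhibits glycogen synthase, was at 554 and 533 at 33 °C and at 235 and 230 at 39 °C, a log2 change of -1.28 ± 0.14 (SE, limma adjusted p 2.25e-05). Among 10 regulators of the Hif pathway 1 rose and 1 fell. Vhl, the ligase subunit that recognises hydroxylated Hif1a, rose by 0.73, and the hydroxylase Egln2 changed by -0.34.

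Of 13 other tested Hif targets 3 rose and 4 fell. The median log2 change of this list was -0.37, against 0.50 for the hypoxia-response members. Ddit4, an inhibitor of mTOR, was at 422 and 430.0 against 1104 and 1178, a log2 change of 1.33 ± 0.11 (SE). Tfrc, the transferrin receptor, was at 6273 and 5876 against 1207 and 1314, a log2 change of -2.21 ± 0.09 (SE), and a second probe set gave -2.58. Whether these lists differ from the members was not tested.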

How the data were processed

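Total RNA from RTEC11 cells was labelled and hybridised to Affymetrix rat arrays, per the labels' protocols. The deposited values are linear intensities per probe set. Their mean after trimming 2% at each end was 499.0 to 499.5 on each array, so the arrays were on a common scale before deposit, while the summary software was not stated in any label. Depth is not defined for arrays, and their number, 4, limits the precision. The members and lists were chosen with earlier results of these data known.

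From the deposited intensities, log2(intensity + 16) was quantile normalized without the 57 control probe sets. Symbols came from GEO's platform annotation. Each of 10411 genes took its brightest probe set, with _x_at sets only as a last choice. The 3395 genes whose mean lay below the 40th percentile (log2 6.60) were left out, and 7016 were tested with limma 3.58.1 in R 4.3.3 (intensity trend, 2 residual degrees of freedom), two-sided. Values on each array were given for called members with an absolute change of at least 0.5 and for Hif1a, Gapdh and Vegfa. They were also given for isoform pairs of opposite sign with 1 called. From each other list the called genes with the largest rise and fall were named with their change. Among those, only Gsk3b, Ddit4 and Tfrc have values on each array. Figures used matplotlib 3.10.9. In simulated data for 7006 genes, 74.6% of 67 genes planted at 0.5, 98.5% of 67 at 1 and 95.5% of 66 at 2 on the log2 scale were recovered, with 4 of 183 calls false. The planted genes lay more than 1 log2 unit above the dim limit, and the simulated noise depended on intensity alone. Far fewer genes changed than in the data, where 49.1% were called. These rates therefore do not carry over to members near the dim limit. Same-numbered replicates did not deviate together (correlation -0.0064 over tested genes). The effects of 15 alternatives, and of 1 more chosen after seeing the data, are given in the closing section.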

Additional observations from a re-analysis of the deposited data

How the results depend on the processing

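The 15 alternatives were 3 other scalings (the deposited scale, median centring and poly-A spike-in scaling), pseudocounts of 1 and 64, no dim filter, a dim filter at the 60th percentile, averaging over the probe sets of each gene, exclusion of _x_at and _s_at probe sets, no intensity trend, the replicate block and leaving out each of the 4 arrays. Of the 24 called members 18 kept their call and direction under each of these that tested them, 13 lower and 5 higher. The other 6 were Pfkm, Aldoa, Pgk1, Ldha, Pdk2 and P4ha2, and their lost calls include Aldoa without the dim filter, Aldoa and Pgk1 without the intensity trend and Pgk1 with the mean of its probe sets (-0.33). The median log2 change of the tested members was -0.22 on the deposited scale, -0.37 with median centring and -0.58 with poly-A spike-in scaling. It ran from -0.24 to -0.12 when single arrays were left out, -0.17 without permissive replicate 2 and -0.12 without nonpermissive replicate 2, and members called lower ran from 15 to 16 and higher from 6 to 8. With the pseudocounts, the stricter dim filter and the probe set exclusion 6 to 8 members were higher and 13 to 17 lower, and with the Gapdh and hexokinase control probe sets kept, which was added after seeing the data, 8 and 16. With spike-in scaling 5 of the other pathway genes were higher and 30 lower, against 12 and 12. Of all 7015 genes tested with that scaling 844 were higher and 3325 lower. The share of calls that were higher among all tested genes was 47.0%, and 52.3% on the deposited scale, 36.7% with median centring and 20.2% with spike-in scaling; among the members it was 33.3%, 32.0%, 30.8% and 22.2% in the same order. Of the 27 spike-in probe sets used, 3 (TrpnX) had intensities near the lowest of the array.

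The changes that turned sign were of members without a call. Slc2a1 was at -0.13 with median centring, -0.35 with spike-in scaling and -0.0019 to 0.069 when single arrays were left out, negative without permissive replicate 1. Pfkfb2 was at 0.061 on the deposited scale and ran from -0.42 to 0.26 when single arrays were left out, positive without nonpermissive replicate 2. Pfkfb3 was at -0.10, Gys1 at -0.14 and Gbe1 at -0.17 with spike-in scaling, and Gys1 ran from -0.000795 to 0.25 when single arrays were left out, negative without permissive replicate 2. Hif1a was at -0.024 with median centring, -0.24 with spike-in scaling and -0.19 with the mean of its probe sets, of which the second is dim. Bnip3 was at 0.012 on the deposited scale, was called at -0.35 with spike-in scaling and ran from -0.21 to 0.045 when single arrays were left out, positive without permissive replicate 2. The causes were not tested. With the replicate block 8 members were higher and 17 lower, Ugp2 joining them, and the numbers do not otherwise tie the arrays together.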
